A study of Mus musculus with 19 samples.

Results

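The repressor arm of the circadian clock was described in mouse heart through 10 genes: Per1, Per2, Per3, Cry1, Cry2, Ciart, Bhlhe40, Bhlhe41, Nr1d1 and Nr1d2. The genes were chosen by symbol as the negative limb of the clock, out of 25239 symbols in a count table of 19 RNA sequencing libraries. All 10 were among the 14301 genes with enough counts to be tested. They were chosen with their levels in all 4 groups in view, so the group differences below describe these libraries and are not independent evidence. The hearts were from wild-type mice given PBS (Wt_PBS, n = 5) or LCWE (Wt_LCWE, n = 6) and from Mcm8 knockout mice given PBS (Mcm8Ko_PBS, n = 3) or LCWE (Mcm8Ko_LCWE, n = 5). LCWE is a cell wall extract of Lactobacillus casei, which is injected into mice to model the vasculitis of Kawasaki disease, and PBS is the saline control. Mcm8 encodes a helicase of the minichromosome maintenance family, and the series asked what its loss does to vessels in this model. Left unstated are strain, age, the design of the knockout allele, the interval after injection and the time of day at which hearts were taken: the sources used here give none of these. The labels also do not say that the samples are separate animals, so p-values measure only the spread between these samples.

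The clock of each cell is a loop of transcription and repression. The activators BMAL1, encoded by Arntl, and CLOCK bind E-box sequences and switch on the Per and Cry genes, whose proteins return to the nucleus and block the activators. CIART and the DEC proteins, encoded by Bhlhe40 and Bhlhe41, repress the same activators, and the nuclear receptors REV-ERB alpha and beta, encoded by Nr1d1 and Nr1d2, repress Arntl itself. The heart runs such a clock of its own, in which Arntl peaks at about the opposite time of day to Nr1d1 and the Dbp gene, an output of the loop. Because the genes peak at different hours, 1 heart gives only 1 reading on each of their cycles.

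The promoters of the members are where these proteins act, and 4 of them are printed here because they carry the clock motifs most plainly. RefSeq windows of 250 bases before the start, on GRCm38.p6, were found for 8 of the 10 members (9 windows, since Per1 has a pair of start sites), and not for Per2 and Bhlhe40. Both strands were searched for the E-box CACGTG, the E-prime box CACGTT, the D-box TTATGTAA, the AGGTCA core of the ROR and REV-ERB element and the cAMP element TGACGTCA. No motif overlaps another in the stretches printed. The E-box stood in 4 of the 9 windows, the E-prime box in 3, the ROR core in 2, the D-box in 1 and the cAMP element in 0. Over 32851 promoter windows of the same length the shares were 6.02%, 3.85%, 14.0%, 0.819% and 1.55% in that order. The stretches run 5′ to 3′ in the direction of the gene, from 250 to 31 bases before the start, with motif matches in capitals. Ciart (chr3:95882259-95882478, minus strand) held 3 E-boxes, which begin 116, 58 and 44 bases before the start. Cry1 (chr10:85185085-85185304, minus strand) held an E-prime box at 79 bases, written here on its other strand, and an E-box at 60. Per3 (chr4:151044696-151044915, minus strand) held D-boxes at 205 and 158 bases. Per1 (chr11:69098699-69098918, plus strand, upstream start) held an E-box at 166 bases and a ROR core on its other strand, nearer the start. A match describes the letters only; binding was not measured in this series.
Ciart: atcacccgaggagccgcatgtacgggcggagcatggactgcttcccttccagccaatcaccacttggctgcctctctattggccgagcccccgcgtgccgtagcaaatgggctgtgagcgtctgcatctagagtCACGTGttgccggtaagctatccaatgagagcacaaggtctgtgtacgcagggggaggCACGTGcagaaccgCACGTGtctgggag
Cry1: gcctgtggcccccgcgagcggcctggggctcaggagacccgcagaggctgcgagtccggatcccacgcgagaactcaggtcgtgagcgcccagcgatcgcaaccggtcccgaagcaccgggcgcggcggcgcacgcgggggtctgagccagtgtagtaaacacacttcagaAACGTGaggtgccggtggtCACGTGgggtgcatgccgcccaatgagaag
Per3: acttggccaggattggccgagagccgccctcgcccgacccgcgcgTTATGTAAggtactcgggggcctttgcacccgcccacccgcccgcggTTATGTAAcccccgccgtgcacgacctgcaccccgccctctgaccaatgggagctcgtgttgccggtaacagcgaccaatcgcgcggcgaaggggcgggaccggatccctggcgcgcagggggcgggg
Per1: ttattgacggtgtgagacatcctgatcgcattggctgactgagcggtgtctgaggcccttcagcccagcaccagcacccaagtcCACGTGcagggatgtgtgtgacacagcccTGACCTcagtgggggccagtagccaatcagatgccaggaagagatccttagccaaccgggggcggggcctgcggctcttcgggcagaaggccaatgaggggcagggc

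Total counts ran from 11853233 to 16145911 per library, and members were covered by 17 to 4520 counts. Levels are given in CPM, counts scaled to a common library size and then adjusted by the TMM method, and replicate numbers only name libraries. Mcm8 was checked first: it held 2 to 13 counts in the 8 knockout libraries and 34 to 76 in the 11 wild-type libraries. A two-sided exact permutation test on its level gave p = 0.0179 under PBS (56 splits) and p = 0.00216 under LCWE (462 splits), the smallest that these designs allow. All 6 cardiomyocyte markers were detected in every group, with summed levels of 68360 to 104400 CPM, and lung markers summed to at most 0.649 CPM. Other lists differed between libraries of the same group. Liver markers summed to 2.17 to 428.5 CPM, skeletal muscle markers to 5.345 to 219.1 CPM and atrial markers to 241.6 to 1516 CPM. Mcm8Ko_PBS 1 and 3 held 4.06 and 380.5 CPM of liver markers and 186.7 and 8.96 CPM of skeletal muscle markers. The part of these tissues in the levels of the members was not tested. Y-linked transcripts divided the libraries within groups: Mcm8Ko_PBS 1 was the only PBS library that held them (mean log2 CPM of 4.88, against -2.25 to -1.43 in the others). After LCWE they were held by Wt_LCWE 1 and Mcm8Ko_LCWE 1, 3 and 5 (4.76 to 4.94), while Mcm8Ko_LCWE 2 held neither them (-0.94) nor the X inactivation transcript Xist (0.649 CPM). Sample numbers in the labels fall under 100, from 100 to under 200, and from 200 upward, and what they stand for is not given. In bulk tissue, fewer cells of a type and less RNA per cell cannot be told apart.

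Per unit of length, Nr1d1 was the most abundant member in wild-type PBS hearts and Ciart the least. Mean levels per kilobase of exon in that group were 31.6 CPM for Nr1d1, 14.7 for Per1, 10.9 for Nr1d2, 6.45 for Bhlhe40, 5.36 for Cry2 and 4.10 for Cry1. Bhlhe41, Per2, Per3 and Ciart followed at 1.997, 1.71, 1.42 and 1.03 CPM per kilobase. Genes whose coordinates overlap can exchange counts where strand is not used, and the sources name no strand setting. Nr1d1 shares 1075 bases with Thra on the opposite strand. Cry2, Ciart and Bhlhe40 lie over antisense or processed transcripts of the table. Per3 lies within the span of Camta1 on the same strand.

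**Figure D1:**
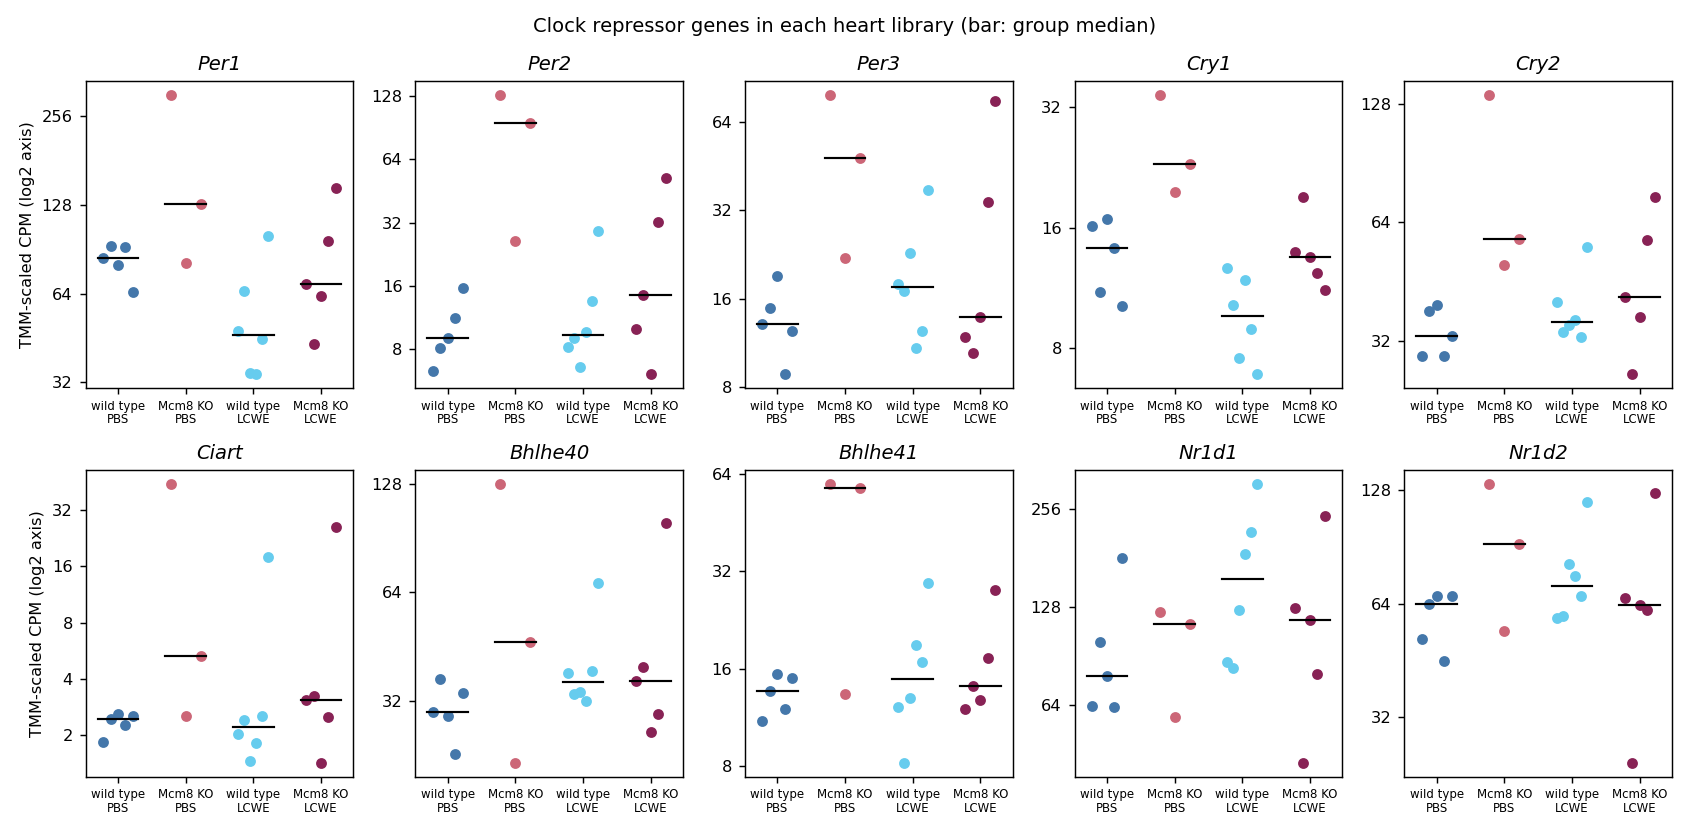
Level of each of the 10 genes in CPM on a log axis, with 1 point for each of the 19 libraries by group and a bar at the median of the group. The knockout PBS points of Per2 (26.0 to 130 CPM) lie above all wild-type PBS points, and Ciart shows 1 high library in each group except wild-type PBS.

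The Period genes encode the repressor subunits whose slow build-up sets the length of the cycle. Per2 lay at 6.26, 8.10, 8.97, 11.2 and 15.6 CPM in wild-type PBS hearts and at 130, 26.0 and 95.7 CPM in knockout PBS hearts. After LCWE it lay between 6.55 and 29.1 CPM in wild type (median 9.32) and at 9.97, 14.4, 6.07, 32.2 and 52.0 CPM in the knockout. Means were 10.026 ± 3.58 CPM (SD, n = 5) and 83.8 ± 52.9 CPM (n = 3) under PBS, and 12.7 ± 8.39 CPM (n = 6) and 22.9 ± 19.1 CPM (n = 5) after LCWE. The PBS genotypes did not overlap for Per2, while the LCWE groups overlapped, with Wt_LCWE 6, Mcm8Ko_LCWE 4 and Mcm8Ko_LCWE 5 as the highest of them. Per1, the member induced fastest by hormones and light, lay at 84.6, 92.7, 79.8, 91.7 and 64.6 CPM in wild-type PBS and at 301, 81.1 and 128 CPM in knockout PBS. After LCWE, Per1 lay between 34.2 and 100 CPM in wild type (median 46.3) and at 69.2, 43.2, 63.0, 96.6 and 146 CPM in the knockout. Knockout PBS library 2 lay within the wild-type range of Per1, and the other knockout PBS libraries lay above it. Per3, which adds to the strength of the loop, lay at 13.1, 14.8, 19.2, 8.87 and 12.4 CPM in wild-type PBS and at 78.8, 22.01 and 48.1 CPM in knockout PBS. In the knockout after LCWE, Per3 lay at 11.8, 10.5, 13.9, 34.2 and 75.3 CPM, and in wild type after LCWE between 10.8 and 37.5 CPM (median 17.5). The PBS genotypes did not overlap for Per3, and Mcm8Ko_LCWE 5 nearly reached the highest PBS library.

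The cryptochromes bind CLOCK and BMAL1 and are the strongest repressors of the loop. Cry1, the late-phase member that carries both E-box forms in the promoter printed above, lay at 16.2, 11.03, 16.9, 14.2 and 10.2 CPM in wild-type PBS and at 34.4, 19.7 and 23.1 CPM in knockout PBS. After LCWE, Cry1 lay between 6.90 and 12.7 CPM in wild type (median 9.61) and at 13.9, 19.1, 13.5, 12.3 and 11.2 CPM in the knockout. Means were 13.7 ± 3.01 and 25.7 ± 7.70 CPM (SD) under PBS, and 9.71 ± 2.32 and 14.0 ± 3.03 CPM after LCWE, for wild type and knockout in turn. The 3 knockout PBS libraries were the highest of all 19 for Cry1, above both the wild-type PBS libraries and the knockout LCWE libraries. Cry1 was lowest in Wt_LCWE 6, a library in which most other members were high. Cry2 lay at 29.3, 38.1, 39.6, 29.3 and 33.0 CPM in wild-type PBS and at 135, 49.9 and 58.2 CPM in knockout PBS. After LCWE, Cry2 lay between 32.9 and 55.3 CPM in wild type (median 35.7) and at 41.5, 26.4, 36.9, 57.9 and 74.3 CPM in the knockout. The PBS genotypes did not overlap for Cry2, and the LCWE genotypes did.

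Ciart, also called CHRONO, is a repressor that recruits a deacetylase to the activators, and it was the most variable member. It lay at 1.84 to 2.58 CPM in all 5 wild-type PBS libraries and at 44.3, 2.54 and 5.27 CPM in knockout PBS. After LCWE, Ciart lay between 1.45 and 17.8 CPM in wild type (median 2.22) and at 3.09, 3.25, 1.42, 2.51 and 26.0 CPM in the knockout. Thus Mcm8Ko_PBS 1, Wt_LCWE 6 and Mcm8Ko_LCWE 5 stood apart from the other 16 libraries, which held at most 5.27 CPM, and each came from a different group. Bhlhe40 and Bhlhe41, which compete with the activators for E-boxes, followed the same libraries in part. Bhlhe40 lay at 29.7, 36.8, 29.0, 22.8 and 33.6 CPM in wild-type PBS, at 128, 21.5 and 46.7 CPM in knockout PBS and between 31.8 and 67.7 CPM (median 36.0) in wild type after LCWE. In the knockout after LCWE it lay at 36.4, 39.7, 26.1, 29.5 and 99.49 CPM, so the groups overlapped in every comparison for Bhlhe40. Bhlhe41 lay at 11.02, 13.6, 15.4, 12.01 and 14.995 CPM in wild-type PBS, at 59.9, 13.4 and 58.0 CPM in knockout PBS and between 8.17 and 29.5 CPM (median 14.8) in wild type after LCWE. In the knockout after LCWE, Bhlhe41 lay at 11.98, 14.2, 12.7, 17.2 and 28.0 CPM. Mcm8Ko_PBS 1 and 3 were the highest of the 19 libraries for Bhlhe41, and Mcm8Ko_PBS 2 lay within the wild-type range.

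The REV-ERB genes are the receptors that repress Arntl and so tie the negative limb to the activators. Nr1d1 lay at 63.7, 100, 78.4, 63.3 and 180 CPM in wild-type PBS and at 123.4, 58.7 and 113.7 CPM in knockout PBS. After LCWE, Nr1d1 lay between 83.1 and 306 CPM in wild type (median 155.99) and at 127.5, 42.6, 117.1, 79.6 and 243.6 CPM in the knockout. All 4 groups overlapped for Nr1d1, and its highest level was in Wt_LCWE 6. Nr1d2 lay at 51.4, 64.0, 66.9, 45.0 and 67.0 CPM in wild-type PBS and at 133, 54.1 and 92.4 CPM in knockout PBS. After LCWE, Nr1d2 lay between 58.7 and 119 CPM in wild type (median 71.5) and at 66.1, 24.2, 63.6, 61.5 and 126 CPM in the knockout. Mcm8Ko_LCWE 2 held the lowest level of Nr1d1, Nr1d2 and Cry2 of all 19 libraries.

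A few libraries carried most of the high values. Mcm8Ko_PBS 1, Mcm8Ko_PBS 3 and Mcm8Ko_LCWE 5 each stood among the 4 highest of the 19 libraries for 9 of the 10 members, and Wt_LCWE 6 for 7. Ranks of these libraries for other genes were not computed, so the high values are not shown to be particular to the members. The ratio of Per2 to Nr1d1, genes that peak at different hours, separated these libraries further. It was 1.05, 0.443 and 0.841 in the knockout PBS libraries, against 0.0808 to 0.177 in wild-type PBS and 0.0515 to 0.109 in wild type after LCWE. In the knockout after LCWE the ratio was 0.0782, 0.338, 0.0518, 0.404 and 0.214. The knockout PBS libraries were thus high in Per2 for their Nr1d1, while Wt_LCWE 6 held both genes high. Whether the libraries were taken at different hours was not tested, since no sampling time is given in the sources used here.

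**Figure D2:**
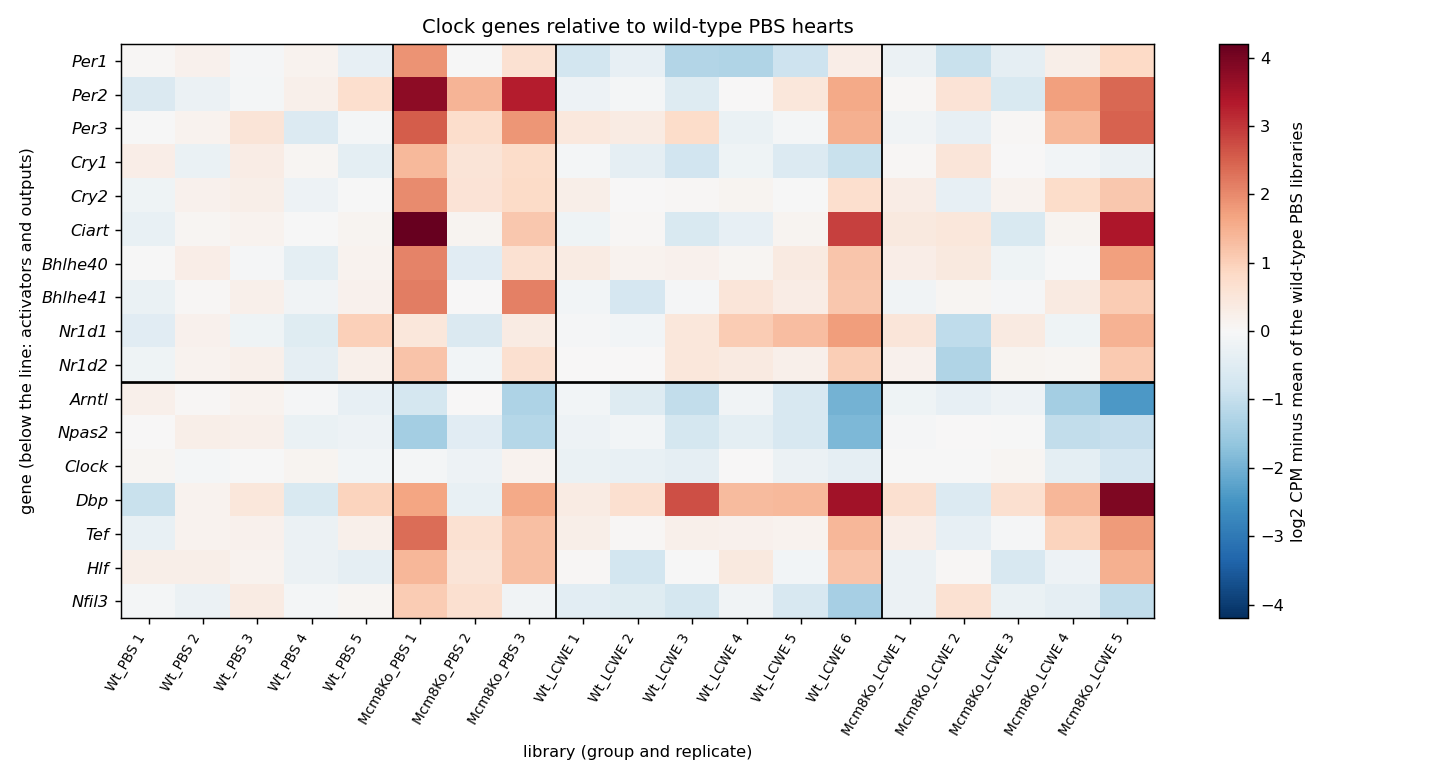
Level of each member and, below the line, of 7 other clock genes in each of the 19 libraries, as the log2 difference from the mean of the wild-type PBS group. Mcm8Ko_PBS 1 and 3, Wt_LCWE 6 and Mcm8Ko_LCWE 5 are among the 4 highest libraries for 7 or more of the 10 members, and all 4 lie below the wild-type PBS libraries for Arntl.

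Loss of Mcm8 under PBS was compared first, because there the members differed most. All 10 members lay above 0 in the knockout, with a median log2 fold change of 1.18 beside 0.001 over all genes tested. The count of members above 0 was known when the genes were chosen, and nothing is read from it. Per2 lay 8.34-fold higher in the knockout (log2 fold change 3.06 ± 0.64, SE as in the values that follow) and was the 1 member that passed the threshold of 0.05 (edgeR adjusted p = 0.0468), where 0.601% of all genes passed, 0.524% higher and 0.0769% lower. Ciart followed at 2.89 ± 1.05, Per3 at 1.86 ± 0.58, Bhlhe41 at 1.70 ± 0.41 and Cry2 at 1.26 ± 0.30, with edgeR adjusted p from 0.0561 to 0.153. Bhlhe40, Per1 and Cry1 lay at 1.11 ± 0.47, 1.04 ± 0.41 and 0.91 ± 0.22, and Nr1d2 at 0.66 ± 0.36. Nr1d1 lay at 0.02 ± 0.52 (edgeR adjusted p = 0.986). Per2, Per3, Cry1 and Cry2 did not overlap between the PBS genotypes, 4 of 10 members, where 4.1% of all genes were higher and 3.62% lower in the knockout without overlap. Cell type markers moved beside these values. The cardiomyocyte markers summed to 75460, 86720 and 68360 CPM in the knockout PBS libraries, against 82630 to 95710 CPM in wild-type PBS, and the 9 macrophage markers to 145.9, 306.9 and 119 CPM, against 204.1 to 270.7 CPM. Mcm8Ko_PBS 1 and 3, the libraries highest in most members, thus lay below the wild-type range for both sets, and the part of this in the result was not tested.

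The calls and several folds depended on which libraries entered. The call on Per2 was lost without Mcm8Ko_PBS 1 (log2 fold change 2.60, edgeR adjusted p = 0.446) or Mcm8Ko_PBS 3 (2.95, edgeR adjusted p = 0.0788). It was also lost, with edgeR adjusted p from 0.0536 to 0.113, without any 1 of the 5 wild-type PBS libraries, Wt_LCWE 1, 2, 4 or 5, or Mcm8Ko_LCWE 1. In these fits the log2 fold change of Per2 stayed between 2.935 and 3.27, close to the 3.06 of all libraries. Without Mcm8Ko_PBS 2, 8 members passed, all but Nr1d1 and Nr1d2, beside 2606 genes of the whole table. Without Mcm8Ko_LCWE 2, 2 members passed. With each library left out in turn, the whole table gave 0 to 2606 genes, so nothing is read from that count of members. Without Mcm8Ko_PBS 1 the log2 fold change of Ciart went from 2.89 to 0.74 and that of Per1 from 1.04 to 0.34. Within label numbers from 100 to under 200, where Mcm8Ko_PBS 1 is the lone knockout PBS library and is assumed to vary like the other groups, Per2 lay at 3.895 (edgeR adjusted p = 2.72e-05) and 8 members passed, beside 3985 genes of the whole table. With the Y-linked level as a term, Per2 lay at 3.05 and did not pass (edgeR adjusted p = 0.109).

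**Figure D3:**
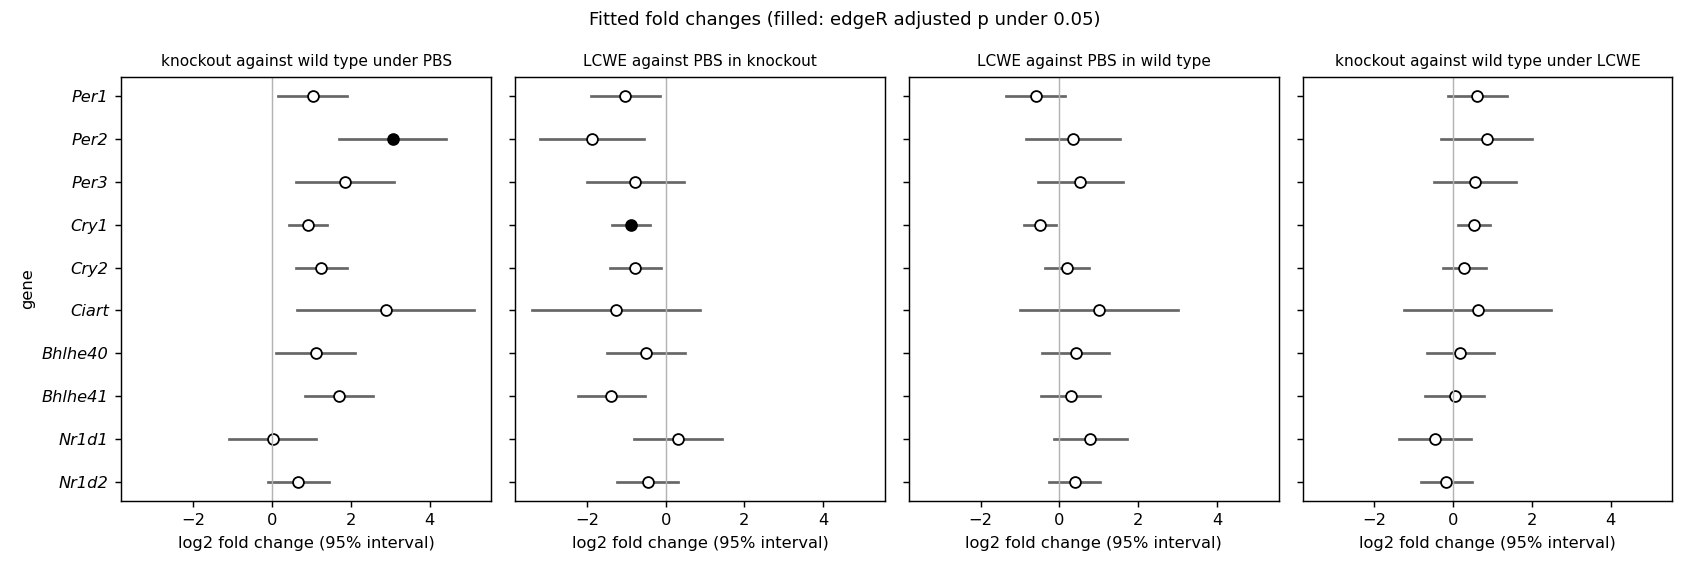
Log2 fold change of each member in 4 comparisons from the fit over all genes, with bars for the 95% confidence interval; filled points passed the threshold of 0.05 on the adjusted p. Filled points are Per2 in knockout against wild type under PBS (3.06) and Cry1 in LCWE against PBS in the knockout (-0.88).

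LCWE in knockout hearts was compared with the same 3 knockout PBS libraries, so the values below mirror those above through shared samples. Here 9 of 10 members lay below 0, with a median log2 fold change of -0.82 beside 0.008 over all genes tested. Cry1 fell by 0.88 ± 0.22 on the log2 scale (1.83-fold lower, edgeR adjusted p = 0.0423) and was the 1 member that passed, where 2.9% of all genes passed, 0.818% higher and 2.08% lower. Cry1 was also the 1 member without overlap, where 3.7% of all genes were lower and 4.91% higher after LCWE without overlap. Per2 lay at -1.86 ± 0.62, Bhlhe41 at -1.38 ± 0.40, Ciart at -1.25 ± 1.003 and Per1 at -1.02 ± 0.41, with edgeR adjusted p from 0.0622 to 0.474. Per3 and Cry2 lay at -0.77 each (± 0.58 and ± 0.30), Bhlhe40 at -0.50 ± 0.47 and Nr1d2 at -0.45 ± 0.36. Nr1d1 lay at 0.31 ± 0.53.

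The call on Cry1 was lost without Mcm8Ko_PBS 1 (log2 fold change -0.61, edgeR adjusted p = 0.357) or Mcm8Ko_PBS 3 (-0.95, edgeR adjusted p = 0.0877). It was also lost, with edgeR adjusted p from 0.0519 to 0.0823, without any 1 of Wt_PBS 1, 2, 3 or 4 or Mcm8Ko_LCWE 1, 3, 4 or 5, at log2 fold changes from -0.88 to -0.81. Without Mcm8Ko_PBS 1, Ciart lay at 0.91 and Bhlhe40 at 0.44, both opposite in sign to the fit with all libraries. Without Mcm8Ko_PBS 2, 5 members passed (Per1, Per2, Cry1, Cry2 and Bhlhe41), beside 2935 genes of the whole table. Within label numbers from 100 to under 200, again with 1 knockout PBS library, 9 members passed, beside 4001 genes of the whole table, and Cry1 lay at -1.16 (edgeR adjusted p = 0.00753). Macrophage markers moved beside this comparison: their 9 genes summed to 119 to 307 CPM in knockout PBS and 308 to 814 CPM in knockout LCWE hearts, with each of them detected, and their part in the result was not tested.

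LCWE in wild-type hearts gave no call among the members or any other gene (edgeR 0 of 14301, with 892 at an unadjusted p under 0.05; DESeq2 1, limma-voom 0). The median log2 fold change of the members was 0.36, with 8 of 10 above 0 and 1 member at an unadjusted p under 0.05. Nr1d1 lay at 0.79 ± 0.44, Per1 at -0.60 ± 0.35 and Cry1 at -0.49 ± 0.19, with edgeR adjusted p from 0.772 to 0.801. The pair below 0 was thus Per1 and Cry1, while the REV-ERB genes lay above 0. Within label numbers from 100 to under 200 (4 PBS and 3 LCWE libraries), Per1 lay at -0.86 and passed (edgeR adjusted p = 0.0323). The groups overlapped for all 10 members, while 0.441% of all genes were higher and 0.259% lower without overlap.

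The genotypes after LCWE also overlapped for all 10 members, while 0.168% of all genes were higher and 0.364% lower without overlap. No more than Mcm8 passed by edgeR, 0.00699% of all genes, and 0 members. By the same test, 1 member and 794 genes of the whole table had an unadjusted p under 0.05. DESeq2 and limma-voom also called 0 members. Cry1 lay at 0.53 ± 0.19, Per1 at 0.62 ± 0.35, Per2 at 0.86 ± 0.54 and Nr1d1 at -0.46 ± 0.43, with a median of 0.41 over the members. The interaction, which asks whether LCWE acted differently in the knockout, gave 0 calls among members and all genes by edgeR, with 3 members and 1145 genes at an unadjusted p under 0.05 (DESeq2 called 5 genes and 0 members; limma-voom called 0). All 10 members lay below 0 in the interaction, with a median of -0.95. Per2 lay at -2.21 ± 0.84, Bhlhe41 at -1.67 ± 0.54 and Cry2 at -0.97 ± 0.40, with edgeR adjusted p from 0.555 to 0.599. Without Mcm8Ko_PBS 2, Bhlhe41 passed at -2.09 (edgeR adjusted p = 0.0189). The knockout PBS libraries enter this contrast and both comparisons that gave calls, so these results are not independent of each other.

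Within groups, the members spread more than most genes. The within-group SD of log2 CPM was 1.34 for Ciart, above that of 98.4% of the genes tested, 0.93 for Per2 (96.5%) and 0.83 for Per3 (94.9%). It was 0.75 for Nr1d1 (93.5%), and 0.34 for Cry1, above 63.7%, while the median gene had 0.27. From the lowest to the highest library, Ciart ranged 31.1-fold, Per2 21.4-fold and Cry1 4.99-fold. With group means removed, the members moved together: 37 of 45 pairs had a Pearson r above 0, with a median of 0.69 over 19 libraries. The closest pair was Ciart and Bhlhe40 (r = 0.934) and the most opposed was Cry1 and Nr1d1 (r = -0.514). Cry1 accounted for all 8 pairs below 0. The points share library and scaling, and no test is given for these pairs. Pairs of other genes were not computed, so the positive r values are not shown to be particular to the members.

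Arntl and Dbp are no members but belong to the same loop and were read in the same libraries. Their relations to the members are a description and not independent support. Arntl lay at 43.3, 39.0, 41.0, 35.8 and 29.5 CPM in wild-type PBS, at 22.5, 37.5 and 15.2 CPM in knockout PBS and at 32.9, 29.3, 32.5, 13.9 and 6.90 CPM in the knockout after LCWE. In wild type after LCWE it lay between 9.26 and 34.6 CPM (median 24.7), lowest in Wt_LCWE 6. With group means removed, 20 relations of members with Arntl and Dbp were computed over the 19 libraries. A permutation test within groups (100000 resamples, two-sided, Benjamini-Hochberg over the 20) gave 10 of 10 members an adjusted p under 0.05 on Pearson r for each partner. On Spearman rho the count was 3 of 10 against Arntl (Per2, Per3 and Bhlhe41) and 6 of 10 against Dbp. How many of all genes tested would pass was not computed, so neither count is shown to be particular to the members. Per2 went against Arntl (r = -0.844, rho = -0.825, permutation adjusted p = 0.00365 and 0.0082) and Nr1d2 went with Dbp (r = 0.890, rho = 0.895, permutation adjusted p = 6e-04 and 2e-04). Cry1 went the other way from the remaining 9 members for both partners, at r = 0.546 with Arntl (rho = 0.493, permutation adjusted p = 0.027 and 0.0807) and r = -0.548 with Dbp (rho = -0.540, permutation adjusted p = 0.027 and 0.0606). Nr1d1 had r = -0.604 with Arntl (rho = -0.458, permutation adjusted p = 0.027 and 0.106) and r = 0.814 with Dbp (rho = 0.791, permutation adjusted p = 0.00313 and 0.0077).

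Part of this rested on a pair of libraries. Without Wt_LCWE 6 and Mcm8Ko_LCWE 5, the farthest from the median of both partners, r with Arntl was -0.733 for Per2, -0.678 for Per3 and -0.308 for Nr1d1. The value for Ciart went from -0.693 to -0.283 and that for Per1 from -0.649 to -0.366. With Dbp, Nr1d2 kept r = 0.819 and Nr1d1 r = 0.704. The r values without this pair were centred on group means that still included it, so its influence is not fully removed. The count of members with an adjusted p under 0.05 against Arntl was 3 without Wt_LCWE 6, 3 without Mcm8Ko_LCWE 5 and 5 without Mcm8Ko_PBS 2; against Dbp it was 5 without Wt_LCWE 6 and 6 without Mcm8Ko_LCWE 5. Within label numbers from 100 to under 200 (n = 11), 0 members passed for either partner. There Per2 had r = -0.0572 with Arntl and Nr1d1 r = -0.0926, while Nr1d2 had r = 0.755 with Dbp, Nr1d1 0.751 and Per3 0.689. The sign turned for 4 members against Arntl and 4 against Dbp. Against Arntl these were Per1 (r = 0.461), Cry2 (0.350), Bhlhe40 (0.198) and Ciart (0.179). Against Dbp they were Per2 (r = -0.419), Ciart (-0.360), Per1 (-0.241) and Bhlhe40 (-0.121). The other ranges hold too few libraries for a value of their own.

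**Figure D4:**
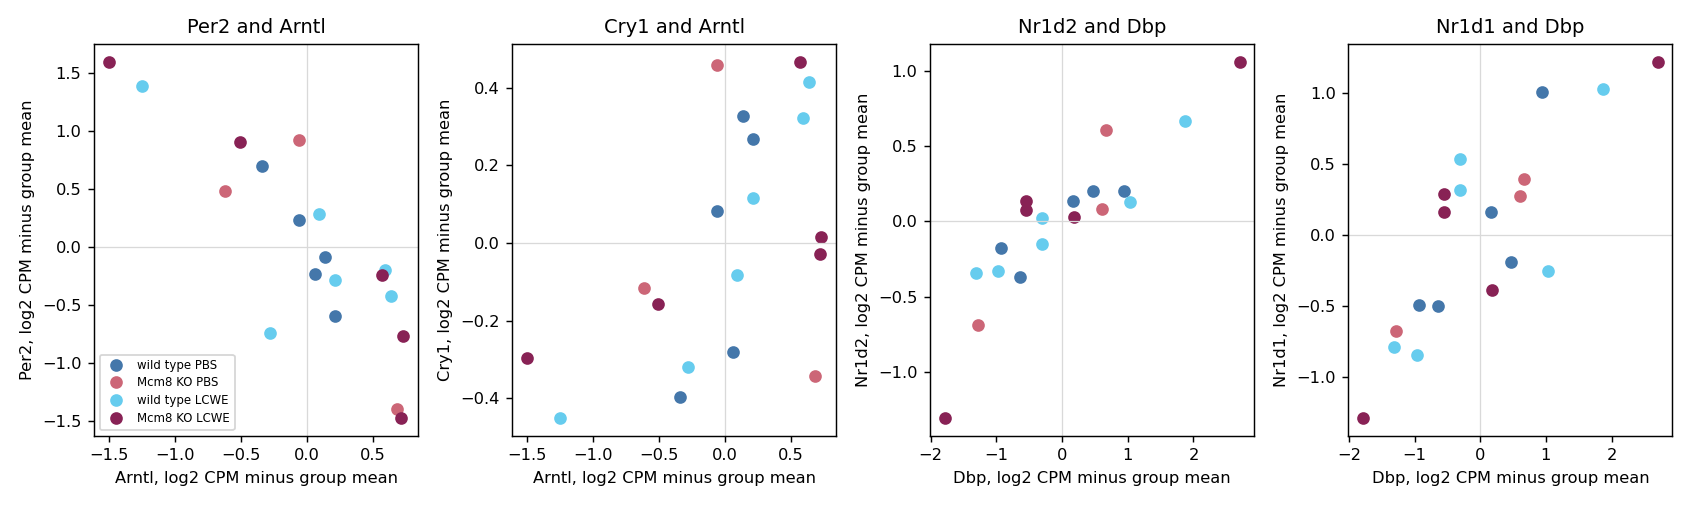
Level of Per2 and Cry1 against Arntl, and of Nr1d2 and Nr1d1 against Dbp. Each is log2 CPM with the mean of its group removed, with 1 point for each of the 19 libraries. Per2 rises as Arntl falls (Pearson r = -0.844), Cry1 goes with Arntl (r = 0.546), and Nr1d2 and Nr1d1 go with Dbp (r = 0.89 and 0.814).

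Genes outside the list that followed 3 of the members most closely were ranked by the same measure, over 10552 genes in 19 libraries. For Nr1d1 they were Tcap (r = 0.823), the titin cap of the sarcomere, Dbp (0.814), Atp10d (0.804), Cited2 (0.800) and Ap3s2 (0.779), with Kctd11 the most opposed (-0.844), then Dsel and Mpp1. For Per2 they were Ahnak (r = 0.906), Osmr (0.898), the receptor of oncostatin M, Asap1, Zfp697 and Ppl, with Nrep and Sh3bgr lowest at -0.898 and then Adam19. For Cry1 they were Fubp1 and Stox2 (both 0.844), Itch, Ctnnd1 and Togaram1, with Btbd6 lowest (-0.823), then Pold1 and Rbm19. The 3 leading lists shared no gene.

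Other lists of clock genes were read beside the members. The D-box factor genes, the activators Dbp, Tef and Hlf, which carry the rhythm to other genes, and their opponent Nfil3, all 4 lay above 0 in the knockout under PBS with a median of 1.08, and 0 passed. After LCWE in the knockout their median was -0.79. Of 10 clock-controlled genes, Lonrf3 fell after LCWE in the knockout by 1.77 ± 0.44 (edgeR adjusted p = 0.0416), and 0 passed under PBS (median 0.62). Among 8 tested kinase and ligase genes and 5 cofactor genes, 0 passed in these comparisons.

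Lists of signals that reset the clock gave further values beside the members. Glucocorticoid targets had a median of 0.57 in the knockout under PBS, with 0 of 10 called, and -0.69 after LCWE in the knockout, where Tsc22d3 fell by 1.07 ± 0.19 and Ddit4 by 1.49 ± 0.30 (edgeR adjusted p = 0.0148 and 0.0299). Hypoxia genes had medians of 0.28 and -0.27, with Adm called in both comparisons (1.28 ± 0.26 and -1.002 ± 0.26) and Bnip3 in the second (-1.38 ± 0.30). Without Mcm8Ko_PBS 1, the whole table held 0 calls under PBS and 1 after LCWE in the knockout. The table held 0 calls under PBS also without Mcm8Ko_PBS 3, Wt_PBS 1, 2 or 3, or Wt_LCWE 5. Immediate early genes had medians of 0.06 and -0.03 with 0 of 11 called. The part of these signals in the levels of the members was not tested.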

How the data were processed

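Gene counts were analysed for 19 mouse heart libraries in 4 groups of genotype and treatment, taken from the labels. Per the labels' protocols, total RNA went through reverse transcription and amplification with a kit made for whole transcriptomes. The deposited values are whole-number counts per gene symbol, not normalized. The submitters' processing notes name STAR 2.7.8a, limma and GRCm38, and give no roles. Which program counted, on which annotation and with what strand setting is not given in the sources used here, and 0 columns of other samples were present.

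Members and lists were chosen with earlier results of these data known. The analysis used R 4.3.3 with edgeR 4.0.16. Low genes were removed with filterByExpr, at a minimum count of 10 and a minimum total of 15. TMM factors scaled the libraries, and edgeR's robust quasi-likelihood test was run on all 4 groups in 1 model without covariates. Adjusted p-values are Benjamini-Hochberg over 14301 genes with a threshold of 0.05, and CPM were computed here with a prior count of 2 on the log2 scale. Replicate pairs were compared by chi-square over 12546 genes, and the lowest value per gene was 8.13 within groups, far from what a library deposited again would give. Named are all 10 members, Mcm8, Arntl, Dbp, the 5 genes most like and the 3 least like Nr1d1, Per2 and Cry1 among genes with a mean of at least 5 CPM, and called genes of the lists. Of the lists, 1 result is not reported here. For most members the spread between libraries of a group limits precision, since counting error is small at their depths. Counting error is not small for Ciart, which held as few as 17 counts in a library. Simulated counts with known changes were recovered for 2-fold changes in 91.8% (LCWE in wild type), 77.8% (LCWE in the knockout), 80.3% (knockout under PBS) and 87.3% (knockout under LCWE). For 1.5-fold changes the shares were 60.7%, 25.3%, 37.1% and 39% in that order. Of all calls in the simulated counts, 2.3%, 6.47%, 7.74% and 2.74% were false in that order, at the threshold of 0.05. The changed genes were drawn at random from those at 5 CPM or above, with noise independent between genes. The members spread more within groups than the median gene and correlate with each other, so these are not rates for the members. Coordinates and exon lengths are from GENCODE M21 on GRCm38, and promoters from RefSeq on GRCm38.p6. Alternatives were RLE factors, library totals, other filters, DESeq2 1.42.0, the quasi-likelihood fit without robust estimation, limma-voom (limma 3.58.1), only the groups compared, covariates, subsets of libraries and each library left out. The omission of the 4 libraries with the most members high and the Arntl term were chosen after seeing the data.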

Additional observations from a re-analysis of the deposited data

Results flagged for a closer look

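Of 30 sets of values (10 members in the 3 groups of 4 to 10 libraries), 3 had 1 library far from the others. Ciart lay at 17.8 CPM in Wt_LCWE 6, while the next highest wild-type LCWE library held 2.53 CPM, a gap that took a share of 0.786 of the range of the group. Ciart lay at 26.0 CPM in Mcm8Ko_LCWE 5, with the next knockout LCWE library at 3.25 CPM and a gap share of 0.726. Bhlhe40 lay at 67.7 CPM in Wt_LCWE 6, with the next at 38.7 CPM and a gap share of 0.743. Chance alone gives such a gap in about 1 in 20 sets, and the members are correlated, so the 3 are not independent. The 3 knockout PBS libraries are too few for this rule.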

How the results depend on the processing

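No paired analysis was possible because the replicate numbers were given in accession order and tie no library to another group. For the 30 log2 fold changes of members examined, 987 comparisons with an alternative gave 880 with the same direction and side of the threshold, 35 that lost and 46 that gained a call, and 26 with the opposite sign. The cause of each change below was not tested.

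Counts are given for LCWE in the knockout first and knockout under PBS second. Library totals alone gave 229 and 21 genes and 0 and 0 members, DESeq2 1260 and 699 genes and 3 and 5 members, limma-voom 113 and 1 genes and 0 and 0 members, and only the groups compared 0 and 1 genes and 0 and 0 members. The label number range as a term gave 116 and 524 genes and 4 members under PBS, and the Y-linked level as a term 830 and 0 genes and 0 members under PBS. Without Mcm8Ko_PBS 1 and Mcm8Ko_LCWE 2 together there were 10 and 2 genes and 0 and 0 members. With label numbers from 100 to under 200 only, where 1 knockout PBS library is assumed to vary like the other groups, there were 4001 and 3985 genes and 9 and 8 members. Without the 4 libraries with the most members high there were 2 and 3 genes and 0 and 0 members; those libraries were picked by the levels of the members and 1 knockout PBS library is left, so smaller folds follow from the choice and show nothing about stability. With Arntl as a term there were 669 and 0 genes and 6 and 0 members. With no filter on low counts, 0 members passed under PBS. For the knockout under LCWE, the stricter filter gave 0 genes, in which Mcm8 is not tested, DESeq2 8, the omission of the pair 2 and the label range 0. For LCWE in wild type, DESeq2 gave 1 gene and the label range 1221 genes and 1 member. For the interaction, DESeq2 gave 5 genes and the label range 2230 genes and 7 members. Within the label range, 0 members were correlated with Arntl and 0 with Dbp.

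With each library left out in turn, LCWE in the knockout gave 1 (without Mcm8Ko_PBS 1) to 2935 genes (without Mcm8Ko_PBS 2) and 0 to 5 members. The knockout under PBS gave 0 to 2606 genes (without Mcm8Ko_PBS 2) and 0 to 8 members. The knockout under LCWE gave 1 to 2 genes, and the interaction 0 to 481 genes and 0 to 1 members. Members correlated with Arntl numbered 3 to 10 and with Dbp 5 to 10.

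The log2 fold change of Nr1d1 under PBS was 0.02 and turned to -0.062 with library totals, -0.15 with the label range term, -0.12 with the Y-linked term, -0.17 without the pair, -0.73 without the 4 libraries and -0.40 with the Arntl term; leaving out 1 library gave -0.18 to 0.37. Without the 4 libraries the values under PBS were -0.031 for Per1, -0.50 for Bhlhe40, -0.008 for Bhlhe41 and -0.12 for Nr1d2. For LCWE in the knockout, omission of the pair gave 1.09 for Ciart, 0.49 for Bhlhe40 and 0.11 for Nr1d2, and omission of the 4 libraries gave 0.016 for Ciart, 0.61 for Bhlhe40 and 0.068 for Bhlhe41. Nr1d1 there was -0.38 within the label range. The interaction of Bhlhe41 without the 4 libraries was 0.041. Leaving out 1 library, LCWE in the knockout ranged from -2.76 to 0.91 for Ciart, from -0.996 to 0.44 for Bhlhe40 and from -0.11 to 0.53 for Nr1d1.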
